A study of Homo sapiens with 2 samples.

Results

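RNA-seq of Stage 6 cells was examined for 8 transcription factors of the pancreatic endocrine lineage, NEUROG3, NEUROD1, NKX2-2, PAX4, PAX6, ISL1, INSM1 and MAFA. They were taken by gene symbol from the 55797 genes listed for each library, and each symbol matched 1 gene. H1 human embryonic stem cells, an established line, were differentiated stepwise to Stage 6, the last stage of the protocol, at which part of the culture expresses insulin. Live and processed cells of this stage were compared. RNA of the live cells, which were neither fixed nor sorted, was extracted with the RNeasy kit. The processed cells went through MARIS, in which cells were fixed in 4% paraformaldehyde, permeabilized with saponin, stained with antibodies and run through the sorter with every cell collected. Their RNA was extracted with a modified RecoverAll protocol. Each condition has 1 library, so no difference below has a replicate check and no p-value is given. The MARIS steps and the extraction kit differ together between the libraries and cannot be told apart. The study's methods and the sample labels disagree on the number of samples per sequencing lane, so the lane may differ between the libraries as well. The culture is a mixture of cell types from 1 line, and in such bulk RNA fewer cells of a type and less RNA per cell cannot be told apart.

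The endocrine cells of the pancreas, which make insulin, glucagon, somatostatin and the other islet hormones, arise from progenitors that briefly switch on NEUROG3. This basic helix-loop-helix (bHLH) factor starts the endocrine program by activating further factors, among them NEUROD1, INSM1, NKX2-2 and PAX4. PAX6, ISL1 and NEUROD1 stay on in hormone-producing cells, and MAFA, an activator of the insulin gene, marks maturing beta cells. The question put to these libraries was how far the levels of the 8 factors differ between live and processed cells.

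Levels are given as FPKM, fragments per kilobase of transcript scaled to library size, with the lower and upper bound deposited beside each value. FPKM is scaled by length, so levels of different genes can be set side by side. The confidence level of the bounds is not stated. In genes with 1 annotated transcript, the product of a low FPKM and the transcript length, shortened by 170 nt, clustered first at 0.01002 FPKM kb (live) and 0.0107 FPKM kb (processed), which was taken as the worth of 1 fragment. Reading the bounds as 2 SDs of a fragment count on either side gave fragment numbers that were a median of 0.988 times those from this step over 2024 such genes in live cells (interquartile range 0.867 to 1.003) and 0.990 times over 2086 in processed cells. In such genes the bounds therefore cover about the counting error, and with 1 library each they hold no spread between preparations. Transcript numbers throughout are from GENCODE 44, whereas the FPKM was estimated with GENCODE 14, whose numbers may differ. The same reading fails for PAX4, which has 6 annotated transcripts. It gave PAX4 fewer fragments in processed than in live cells (703 against 964) at a higher FPKM. PAX6, with 81 transcripts, likewise had 549 against 752 at a higher FPKM. The bounds of these genes therefore hold more than counting error. NEUROD1 (5 transcripts, 3590 against 3300) and ISL1 (3 transcripts, 1507 against 1567) showed no such conflict. On this reading NEUROG3 rested on 1208 fragments in live and 780.5 in processed cells, NKX2-2 on 1479 and 1036, and INSM1 on 6216 and 4003.

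Of the 8 factors, 7 were expressed at 6.01 to 23.4 FPKM in both libraries, and MAFA was near 0. The order in live cells was INSM1, NEUROD1, PAX6, NEUROG3, PAX4, NKX2-2, ISL1 and MAFA, and the only neighbours in it with overlapping bounds were NEUROG3 and PAX4. In processed cells INSM1, NEUROD1 and PAX6 kept the first 3 places, while PAX4 stood next, with bounds overlapping those of PAX6. NEUROG3, ISL1 and NKX2-2 followed, and the bounds of each overlapped those of its neighbour. NEUROG3 and PAX4 thus exchanged places, and their bounds, which overlapped in live cells, were separate in processed cells.

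**Figure D1:**
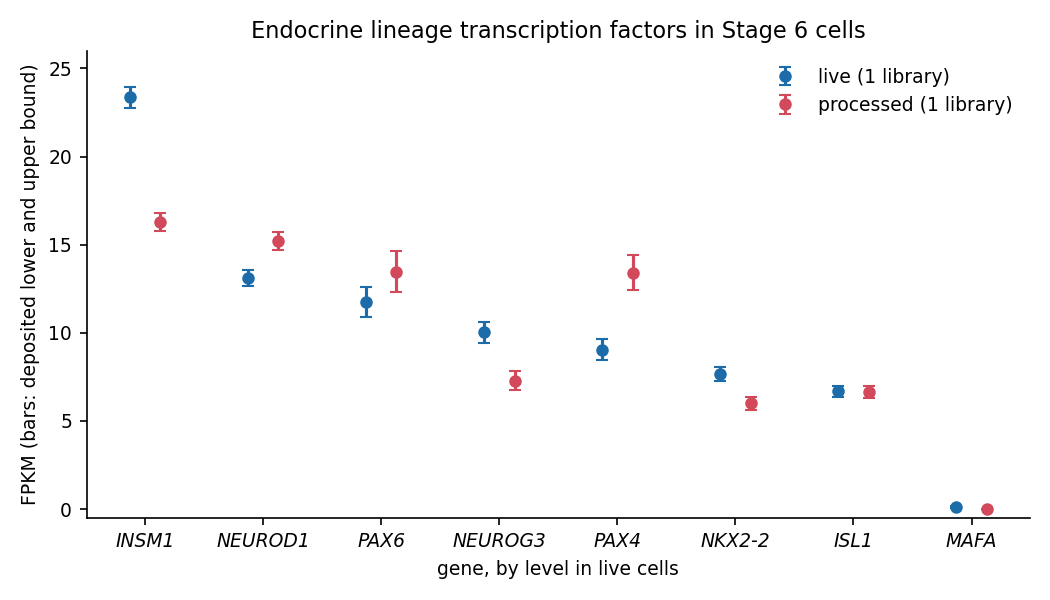
FPKM of the 8 endocrine factors (y axis) in the live (blue) and the processed library (red), 1 library each, with bars from the lower to the upper deposited bound. INSM1, NEUROG3 and NKX2-2 lie lower and NEUROD1 and PAX4 higher in processed cells with bounds that do not overlap, PAX6 and ISL1 have overlapping bounds, and MAFA is at 0.119 FPKM in live cells and listed at 0 in processed cells.

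NEUROG3 (chromosome 10, 71331454 to 71332994 on GRCh37/hg19, minus strand, 2 exons) stands at the head of the program. It had 10.02 FPKM in live cells (bounds 9.44 to 10.6) and 7.29 FPKM in processed cells (6.77 to 7.81). The processed value was thus the lower, outside the bounds of the live value, at 0.728 times the live FPKM, and the most distant pairs of bounds allow 0.639 to 0.827 times. On the log2 scale with 1 FPKM added to each value, the scale used for all log2 ratios here, the ratio of processed to live was -0.41.

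INSM1 and NKX2-2 lie downstream of NEUROG3 and were also lower in processed cells. INSM1 (chromosome 20, 20348765 to 20351590, plus strand, a single exon), a zinc finger factor of endocrine and neuroendocrine cells, had 23.4 FPKM in live cells (22.8 to 23.9) and 16.3 FPKM in processed cells (15.8 to 16.8). This was the lowest quotient of the 7 expressed factors, 0.697, with 0.658 to 0.737 allowed by the bounds and a log2 ratio of -0.50. NKX2-2 (chromosome 20, 21491648 to 21494664, minus strand, 2 exons), a homeodomain factor needed for beta cell formation, had 7.68 FPKM in live cells (7.28 to 8.08) and 6.01 FPKM in processed cells (5.64 to 6.38). Its quotient was 0.782 (0.698 to 0.877), a log2 ratio of -0.31. The quotients of NEUROG3 and NKX2-2, and those of NEUROG3 and INSM1, overlapped within the ranges the bounds allow, whereas those of INSM1 and NKX2-2 touched only between 0.698 and 0.737.

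NEUROD1 and PAX4, which NEUROG3 also activates, were higher in processed cells. NEUROD1 (chromosome 2, 182537815 to 182545603, minus strand, 2 exons), the bHLH factor that takes over from NEUROG3, had 13.1 FPKM in live cells (12.6 to 13.5) and 15.2 FPKM in processed cells (14.7 to 15.7), a quotient of 1.16 (1.08 to 1.24) and a log2 ratio of 0.20. PAX4 (chromosome 7, 127250346 to 127255982, minus strand), a paired-box repressor that favours the beta and delta fates over the alpha fate, had 9.04 FPKM in live cells (8.46 to 9.62) and 13.4 FPKM in processed cells (12.4 to 14.4). PAX4 had the highest quotient of the set, 1.48 (1.29 to 1.71), and a log2 ratio of 0.52. The live bounds of both genes ended below the point where the processed bounds began.

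The stretches before the starts of NEUROG3 and PAX4 are shown. Among the factors whose windows were examined, these had the lowest and the highest quotient. The 250 bases before each start were taken from the RefSeq promoter table, whose build is GRCh38.p14, and each was found once, letter for letter, in GRCh37, at chr10:71333179-71333428 and chr7:127256082-127256331, both on the minus strand and free of annotated exons. The sequences run 5′ to 3′ and capitals mark the E-box CANNTG, the palindromic motif, read alike on both strands, to which bHLH factors such as NEUROG3 and NEUROD1 bind.
NEUROG3: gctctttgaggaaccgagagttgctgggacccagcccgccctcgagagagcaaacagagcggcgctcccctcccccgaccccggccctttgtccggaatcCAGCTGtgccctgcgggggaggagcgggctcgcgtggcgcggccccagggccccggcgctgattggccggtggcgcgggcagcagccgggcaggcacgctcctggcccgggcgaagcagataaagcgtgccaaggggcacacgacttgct
PAX4: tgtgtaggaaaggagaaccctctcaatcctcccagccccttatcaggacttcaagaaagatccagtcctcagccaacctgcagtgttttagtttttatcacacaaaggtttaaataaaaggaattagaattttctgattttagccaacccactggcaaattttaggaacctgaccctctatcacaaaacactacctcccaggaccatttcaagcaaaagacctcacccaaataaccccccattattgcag
The NEUROG3 window held 1 E-box, CAGCTG, starting 150 bases before the start, and the PAX4 window held none. The starts used for these windows lie 184 bases (NEUROG3) and 99 bases (PAX4) upstream of the gene starts given above. Of the 8 factors, 6 had entries, and in the window nearest to the gene start ISL1 also held 1, CAGCTG at 144 bases, while NEUROD1, NKX2-2 and PAX6 held none. The nearest windows of ISL1, NEUROD1 and NKX2-2 overlapped annotated exons. A gene can have several windows, and a farther window of NKX2-2 held 3 E-boxes, as did a farther window of PAX6. A farther window of PAX4, whose start lies 2214 bases upstream of the gene start, held none. The PAX4 window shown lies downstream of that farther start. At least 1 E-box was present in 61.8% of all 35116 windows of this length in the table. The match is a description of these letters and not of binding.

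PAX6 and ISL1, which remain on in hormone-producing cells, did not differ beyond their bounds. PAX6 (chromosome 11, 31806340 to 31839509, minus strand), a paired-box factor that activates the glucagon and insulin genes, had 11.7 FPKM in live cells (10.9 to 12.6) and 13.5 FPKM in processed cells (12.3 to 14.6). Its log2 ratio was 0.18, and its quotient of 1.15 came with an allowed range from 0.978 to 1.34. The bounds were the widest of the 7 expressed factors, with half-widths of 7.29% and 8.53% of the FPKM, and 81 transcripts are annotated for this gene. ISL1 (chromosome 5, 50678921 to 50690564, plus strand), a LIM homeodomain factor of postmitotic endocrine cells, had 6.67 FPKM in live cells (6.33 to 7.01) and 6.65 FPKM in processed cells (6.31 to 6.995). Its quotient was 0.997, and the bounds allow 0.900 to 1.10.

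MAFA (chromosome 8, 144501352 to 144512576, minus strand) had 0.119 FPKM in live cells (0.0723 to 0.166) and was listed at 0, with bounds of 0, in processed cells. With the bounds read as 2 SDs, the live value rested on 25.8 fragments. No fold is given, since an exact 0 in these tables can also be a failed estimate, although both MAFA estimates have the status OK. Of the 3136 genes whose live FPKM lay within 2-fold of that of MAFA, 39.9% were listed at 0 in processed cells. MAFA was the only one of the 8 factors below 1 FPKM in both libraries, and it stays out of the counts that follow.

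Among the 7 factors with at least 1 FPKM, the bounds were separate and processed cells lower for 3 (NEUROG3, INSM1 and NKX2-2), separate and processed cells higher for 2 (NEUROD1 and PAX4), and overlapping for 2 (PAX6 and ISL1). Over all 17326 genes that reached 1 FPKM in a library, the bounds were separate with processed cells lower for 43.7% and with processed cells higher for 28.1%, so that separate bounds were common in both directions. None of the 7 was more than 2-fold lower or higher, which applied to 6.19% and 6.57% of all these genes. The median log2 ratio was -0.0033 over the 7 factors, that of ISL1, and -0.092 over the 17326 genes. The factors ran from -0.50 to 0.52. Between percentiles 5 and 95, all genes with a mean FPKM of 8 to 16 ran from -0.83 to 0.79. Those at 16 to 32 ran from -0.67 to 0.62.

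Set beside genes of like level, those with a mean FPKM within 2-fold of its own, each factor lay within the range of other genes. INSM1 was farthest down, with 12.9% of 5807 such genes at a lower log2 ratio, and NEUROG3 followed, with 24.8% of 6287 genes. PAX4 was farthest up, with 89.3% of 6476 genes at a lower log2 ratio, followed by NEUROD1 with 76.0% and PAX6 with 74.5%. NKX2-2 (34.1%) and ISL1 (59.2%) lay nearer the middle. The share of like-level genes whose log2 ratio was farther from 0 than that of the factor was 22.0% for INSM1, 26.5% for PAX4, 40.6% for NEUROG3 and 56.1% for NKX2-2.

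**Figure D2:**
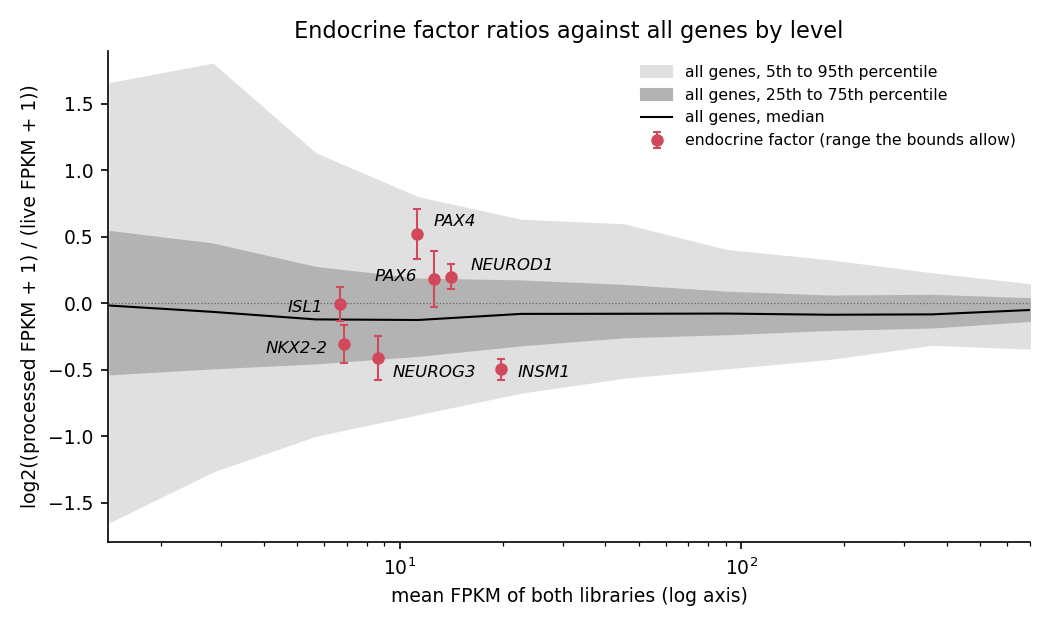
Log2 ratio of processed to live FPKM, with 1 FPKM added to each (y axis), against the mean FPKM of both libraries on a log axis (x axis) for the 7 expressed endocrine factors (red points, bars for the range that the deposited bounds allow). Grey bands run from percentile 25 to 75 and from 5 to 95 of all genes at each level and the line is their median. All 7 points lie within the outer band, PAX4 at 0.52 and INSM1 at -0.50 lie clearly outside the inner band, and NEUROD1 at 0.20 and NEUROG3 at -0.41 lie near its edges.

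Quotients between the factors within a library do not depend on how a library is scaled. NEUROD1 was 1.31 times as high as NEUROG3 in live cells (1.19 to 1.44 allowed by the bounds) and 2.09 times as high in processed cells (1.88 to 2.32). PAX4 was 0.902 times as high as NEUROG3 in live cells (0.798 to 1.02) and 1.84 times in processed cells (1.59 to 2.13). PAX6 went from 1.17 times NEUROG3 (1.03 to 1.33) to 1.85 times (1.58 to 2.16), and ISL1 from 0.666 times (0.598 to 0.742) to 0.913 times (0.808 to 1.03). The quotients of these 4 factors to NEUROG3 were thus higher in the processed library, with allowed ranges that did not overlap. They share the denominator NEUROG3, itself at 0.728 times its live FPKM, and are therefore not independent of each other. ISL1 itself was at 0.997 times its live FPKM. The ranges overlapped for INSM1, at 2.33 times NEUROG3 in live cells (2.15 to 2.54) and 2.23 times in processed cells (2.02 to 2.48). NKX2-2 likewise had 0.767 times the NEUROG3 level in live cells (0.687 to 0.856) and 0.825 times in processed cells (0.722 to 0.943), with overlapping ranges. INSM1 against NEUROD1 moved from 1.78 times (1.68 to 1.89) to 1.07 times (1.003 to 1.14).

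The 8 factors summed to 81.7 FPKM (live) and 78.3 FPKM (processed). Within this sum the share of INSM1 went from 28.6% to 20.8% and that of NEUROG3 from 12.3% to 9.31%. PAX4 went from 11.1% to 17.1%, NEUROD1 from 16.0% to 19.4% and PAX6 from 14.4% to 17.2%. NKX2-2 made up 9.40% and 7.68%, and ISL1 8.16% and 8.50%. With INSM1 left out of the sum, the change in the share of ISL1 turned from 0.33 to -0.71 percentage points, and that of NEUROG3 went from -2.95 to -5.41. The total was therefore nearly level while its makeup differed.

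The factors that were lower in processed cells have transcripts rich in G and C. The GC content of the longest annotated transcript was 64.9% for NEUROG3, 63.2% for INSM1 and 57.4% for NKX2-2. It was 51.7% for PAX4, 45.4% for ISL1, 40.5% for NEUROD1 and 40.3% for PAX6, none of which was lower with separate bounds. Among all genes with a mean FPKM of 5 to 30, the order ran the other way, with a median log2 ratio of -0.19 over 3023 genes of 35 to 45% GC, -0.10 over 2491 genes of 45 to 55%, -0.041 over 1884 genes of 55 to 65% and 0.036 over 280 genes of 65 to 75%. Against genes of like level and a GC content within 5 percentage points, INSM1 stood lower still, with 6.48% of 1127 genes below it, and NEUROG3 had 15.3% of 803 genes below it. NEUROD1 and PAX6 stood higher than 80.0% of 2431 and 78.9% of 2470 such genes. The part of base composition in the differences was not tested beyond these values.

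**Figure D3:**
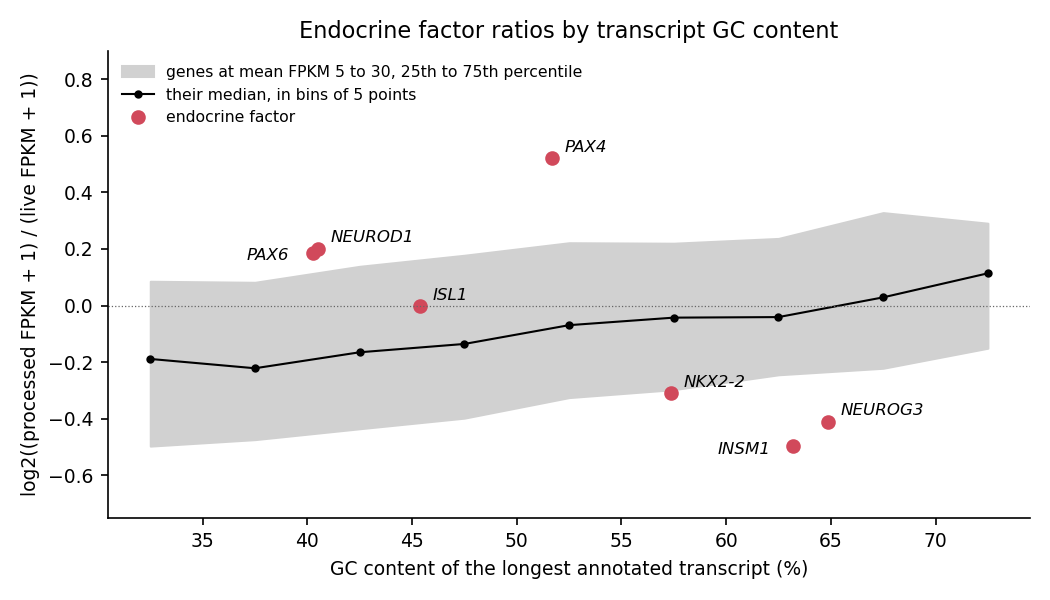
Log2 ratio of processed to live FPKM (y axis) against the GC content of the longest annotated transcript in percent (x axis) for the 7 expressed endocrine factors (red points). The line and the band give the median and the range from percentile 25 to 75 of genes with a mean FPKM of 5 to 30 in bins of 5 percentage points, which mostly go up with GC content, whereas INSM1, NEUROG3 and NKX2-2 at 57.4 to 64.9% GC lie at -0.31 and below and NEUROD1 and PAX6 near 40% GC lie at 0.18 and above.

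The factors also differ in gene structure. The 3 that were lower have 1 annotated transcript each, of 1560 nt (NEUROG3), 2123 nt (NKX2-2) and 2846 nt (INSM1), in 1 or 2 exons. PAX4, PAX6 and ISL1 have longest transcripts of 12, 13 and 6 exons, and NEUROD1, with 2 exons, has 5 annotated transcripts and a longest one of 3602 nt. For genes with several transcripts the FPKM depends on how fragments were divided among them. That division used GENCODE 14, whereas the structures given here are from GENCODE 44. By length, genes at a mean FPKM of 5 to 30 had a median log2 ratio of -0.024 at 1000 to 2000 nt, -0.051 at 2000 to 3000 nt and -0.12 at 3000 to 5000 nt.

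In the deposited tables, 4 of the factors overlap another gene, and the strand setting of the counting is not given in the sources used here. NEUROD1 shares 7578 bases of its span with CERKL on the same strand, which had 2.50 FPKM (live) and 1.70 FPKM (processed), opposite in direction to NEUROD1. PAX6 overlaps RCN1, an abundant gene of the opposite strand with 65.2 and 53.1 FPKM, over 5571 bases. ISL1 overlaps the antisense transcript CTD-2314G24.2 over 574 bases, which had 1.28 and 0.595 FPKM. NKX2-2-AS1, within NKX2-2 and antisense to it, had estimates near 0, with upper bounds of 0.0517 and 0.0553 FPKM. Without strand, fragments of overlapping antisense genes cannot be told apart. NEUROG3, INSM1, PAX4 and MAFA overlap no other listed gene.

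Each factor was then set beside its relatives, 25 genes of the same families, of which 12 reached 1 FPKM in a library. NEUROG3 and NEUROD1 were far above the other neurogenic bHLH genes. NEUROG1 had 1.82 (live) and 1.08 FPKM (processed) and NEUROG2 0.704 and 0.454 FPKM, while NEUROD4 had 0.667 FPKM in live cells and was listed at 0 in processed cells, and NEUROD2 and NEUROD6 were listed at 0 in both. NKX2-2 likewise was the main gene of its group, with NKX2-5 next at 1.24 and 1.41 FPKM. ISL2 had 2.06 and 1.73 FPKM, and INSM2 had 0.109 FPKM in live cells and was listed at 0 in processed cells.

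The PAX and MAF families held further abundant genes. PAX3, known from neural crest and muscle, had 8.10 FPKM in live cells (7.56 to 8.63) and 18.9 FPKM in processed cells (17.2 to 20.5), above both PAX6 and PAX4 in the processed library. Its log2 ratio of 1.13 was the only one of these relatives past 2-fold with 1 FPKM added. MAFF (3.38 and 1.53 FPKM) and NRL (1.27 and 0.323 FPKM), both lower with separate bounds, had FPKM quotients of 0.453 and 0.254, which the added 1 FPKM brings within 2-fold. PAX7 had 3.26 and 2.13 FPKM, and PAX8 had 1.33 and 2.57 FPKM with overlapping bounds. Where MAFA was near 0, MAF had 13.8 and 11.7 FPKM. The small MAF gene MAFK had 18.1 and 19.4 FPKM. Over the 12 expressed relatives the bounds were separate and lower in processed cells for 7 and separate and higher for 2, PAX3 and MAFK. Over all genes these shares were 43.7% and 28.1%.

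**Figure D4:**
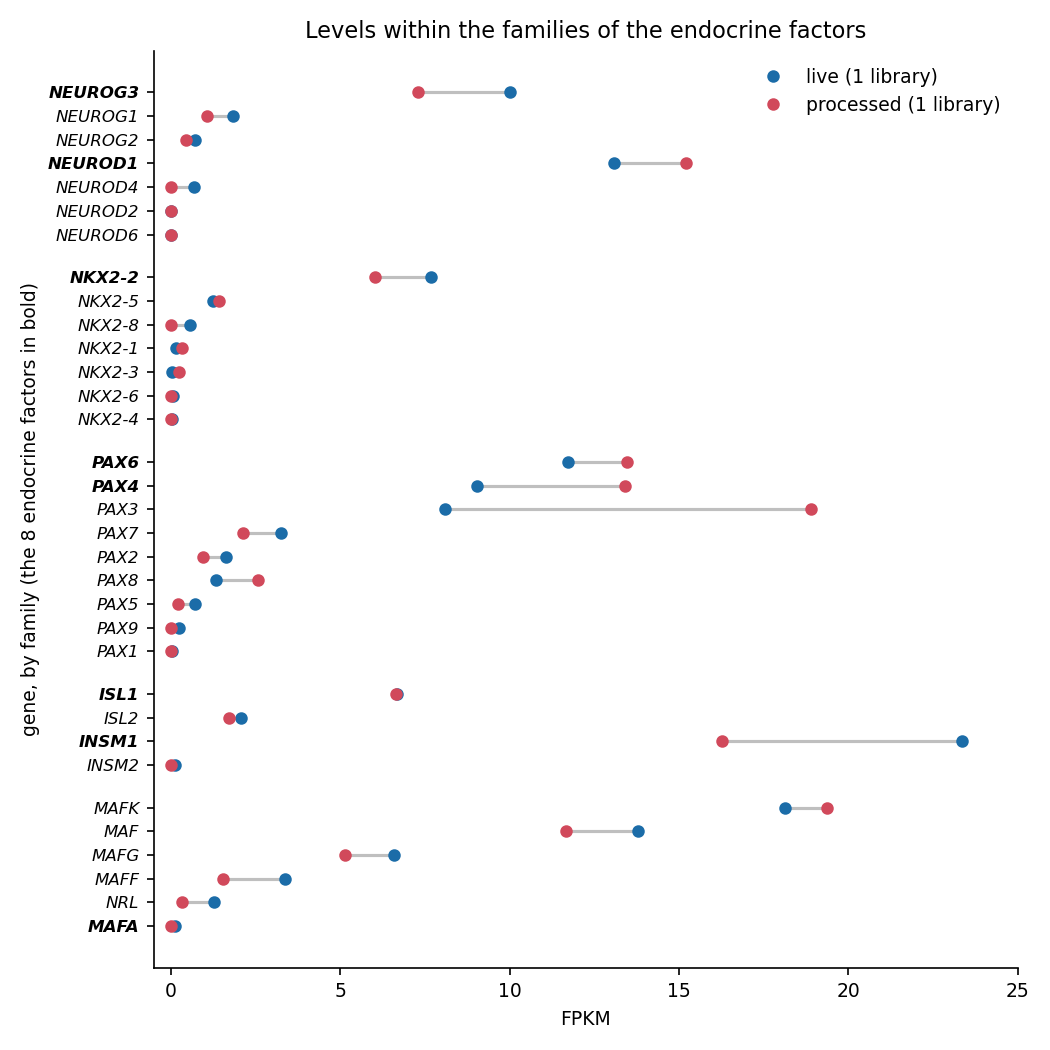
FPKM (x axis) of the 8 endocrine factors (bold) and 25 other genes of their families (y axis) in the live (blue) and the processed library (red), with a grey line joining both values. NEUROG3, NEUROD1, NKX2-2, ISL1 and INSM1 lie above every relative drawn in their own group in both libraries, whereas PAX3 passes PAX6 and PAX4 in processed cells at 18.9 FPKM and MAFA lies below every other MAF gene drawn.

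Other transcription factors of the endocrine lineage were compared in the same way. Of 16 such genes 13 reached 1 FPKM in a library, and of these 9 were lower with separate bounds (43.7% of all genes), 0 were higher (28.1% of all genes) and 4 overlapped, with a median log2 ratio of -0.18 over the 13. RFX3, a factor of ciliated and endocrine cells, had 7.91 FPKM (live) and 4.89 FPKM (processed). ETV1 had 5.11 and 2.85 FPKM, and LMX1B 13.1 and 9.59 FPKM. PROX1 had 11.9 and 8.20 FPKM, and IRX2, an alpha cell factor, 23.1 and 17.0 FPKM. TOX3 had 19.8 and 16.1 FPKM and IRX1 10.8 and 9.34 FPKM. FEV, found in endocrine progenitors and serotonergic neurons, had 27.2 and 24.1 FPKM, and RFX6, which acts downstream of NEUROG3, had 14.04 and 12.4 FPKM. HHEX (41.5 and 41.0 FPKM), GLIS3 (17.7 and 18.0 FPKM), MNX1 (15.2 and 16.5 FPKM) and ST18 (1.93 and 1.87 FPKM) had overlapping bounds. POU3F4 and MYT1 were below 1 FPKM, and SCRT1 was listed at 0 in both libraries.

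Of the regulators above NEUROG3, all 10 listed here reached 1 FPKM. Of these 5 were lower with separate bounds (43.7% of all genes), 3 were higher (28.1% of all genes) and 2 overlapped. Their median log2 ratio was -0.086. ONECUT1, an activator of NEUROG3 in pancreatic progenitors, differed most, at 31.2 FPKM in live cells (29.9 to 32.5) and 17.4 FPKM in processed cells (16.2 to 18.6), a log2 ratio of -0.81. HES1, the Notch effector that represses NEUROG3, had 93.6 and 87.1 FPKM, and FOXA2 had 60.8 and 55.1 FPKM. GATA6 (30.2 and 25.996 FPKM) and PTF1A (16.3 and 14.5 FPKM) were the other genes that were lower. SOX9 (82.4 and 85.3 FPKM), PDX1 (66.5 and 72.1 FPKM) and GATA4 (53.0 and 59.2 FPKM) were higher. NKX6-1, at 16.8 and 16.0 FPKM, and GLIS3, which is on both lists, overlapped.

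These splits depend on scale. The median quotient of processed to live FPKM over genes with at least 1 FPKM in both libraries was 0.932, or -0.10 on the log2 scale. With the processed values divided by it, PAX6 joined NEUROD1 and PAX4, giving 3 factors lower and 3 higher. Of the other endocrine factors 6 were then lower and 2 higher, and of the upstream regulators 2 were lower and 3 higher. Over all 17326 genes the shares became 35.7% lower and 34.8% higher. NEUROG3, INSM1 and NKX2-2 remained lower, and NEUROD1 and PAX4 higher, with separate bounds, while ISL1 moved to 0.085 with overlapping bounds.

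**Figure D5:**
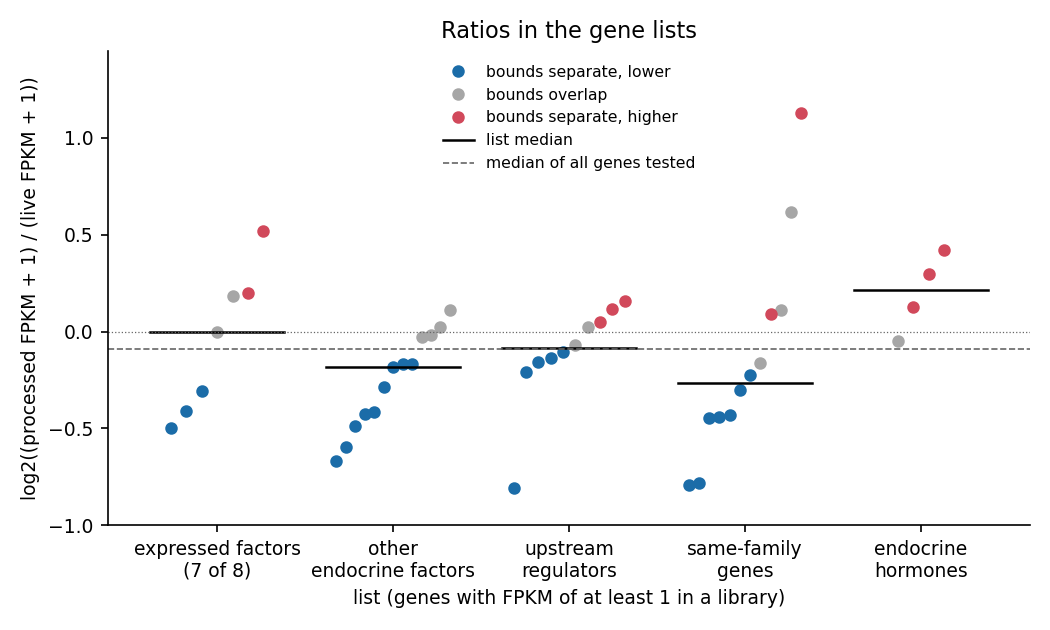
Log2 ratio of processed to live FPKM (y axis) for the genes of several lists with at least 1 FPKM in a library (lists along the x axis), 1 point a gene, blue where the bounds were separate and processed cells lower, red where they were higher and grey where they overlapped. Black bars are list medians and the dashed line is the median of all genes tested, -0.092. Both the 7 expressed factors, from -0.50 to 0.52, and the other endocrine factors, from -0.67 to 0.11, extend to both sides of this line.

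The label of the culture was checked against hormone genes. SST had 243 FPKM (live) and 266 FPKM (processed), GCG 135 and 131 FPKM, INS 98.3 and 121 FPKM and GHRL, the ghrelin gene, 32.1 and 43.3 FPKM. IAPP, a product of beta cells, had 0.759 FPKM in live cells and was listed at 0 in processed cells, and PPY was listed at 0 in both. The bounds of 3 of the 4 expressed hormones were separate and higher in processed cells (28.1% of all genes), and those of GCG overlapped. Among genes of endocrine vesicles, CHGB had 6.56 and 3.16 FPKM and SYP 6.98 and 6.60 FPKM. CHGA had 1794 and 1741 FPKM, where the processed estimate has the status FAIL and bounds from 0 to 4712.

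Several of the 8 factors are also used outside the pancreas, in neurons (PAX6, ISL1, NEUROD1, INSM1) and in the gut (NEUROG3, PAX4), so markers of these tissues are given beside them. The 8 neural markers, of which NEUROG1, NEUROG2 and NEUROD6 are also family members named above, summed to 9.87 FPKM (live) and 8.96 FPKM (processed). Of these 5 reached 1 FPKM, 2 were lower and 1 was higher, SOX1 was the highest at 3.97 and 2.95 FPKM, and NEUROD6 was listed at 0 in both libraries. The 9 intestinal markers summed to 40.3 and 61.6 FPKM. The intestinal factor CDX2 had 14.1 and 20.9 FPKM, and the hormone genes GAST (4.43 and 17.7 FPKM) and CCK (4.79 and 11.2 FPKM) exceeded their live levels by more than 2-fold. The other 6 had lower values in processed cells, among them NTS (13.5 and 10.4 FPKM, separate bounds) and PYY (1.25 and 0.679 FPKM, overlapping bounds). The median log2 ratio was -0.35 over all 9 intestinal markers and 0.53 over the 5 that reached 1 FPKM. Of these 5, 1 was lower and 3 were higher with separate bounds. The 7 mesenchymal markers summed to 75.1 and 66.0 FPKM, with 4 lower and 2 higher in processed cells. Beside these counts of neural, intestinal and mesenchymal markers, 43.7% of all genes were lower and 28.1% higher with separate bounds. Of the pluripotency genes, POU5F1 had 7.92 and 8.53 FPKM and NANOG 1.27 and 7.34 FPKM. No intestinal, mesenchymal or pluripotency marker was listed at 0. The part of these cell types in the levels of the 8 factors was not tested.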

How the data were processed

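Paired reads of 80 nt from 1 live and 1 processed library were aligned by the authors to GRCh37/hg19 with STAR 2.2.0c guided by GENCODE 14, and FPKM was estimated per gene with Cuffdiff; the submitters' processing notes list Cufflinks 2.0.2. The deposited FPKM values are normalized for length and library size, and fragment counts are not used here. Genes of the libraries were joined by identifier, as 5489 of 55797 stood in the same row. Log2 ratios used a pseudocount of 1 FPKM. Genes were counted where FPKM reached 1 in a library, as past 2-fold or by whether deposited bounds overlapped. With 1 library per condition, there was no test. Transcript number, length, exons, GC content and strand came from GENCODE 44 mapped to GRCh37 (94.5% of identifiers matched). The 8 factors and all gene lists were chosen with earlier results of these data known. Named genes are the 8 factors, genes overlapping them, and list genes of at least 1 FPKM; those below it were named after their values were seen. Some genes of the lists are not reported here and were left out of their counts. Fragment numbers used a fragment length of 170 nt, within the range in the study's methods. A comparison of protein sequences was planned and not run. Alternatives varied pseudocount, filter and scaling. Calculations used Python 3.11.15, numpy 2.4.6, pandas 2.3.3 and matplotlib 3.10.9, and were tested on simulated data.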

Additional observations from a re-analysis of the deposited data

How the results depend on the processing

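The log2 ratios of the 7 expressed factors were recomputed with a pseudocount of 0.1, with none, after scaling by the median ratio and after rescaling to the same FPKM sum. Of 28 such values, 26 stayed within the range that the deposited bounds allow, and 2, both under scaling by the median ratio, did not, NEUROD1 at 0.30 and INSM1 at -0.40, each in its former direction. The median log2 ratio over all 8 factors was -0.083, and -0.18 with a pseudocount of 0.1, -0.039 after median scaling and -0.14 after rescaling to the same sum. No factor of at least 1 FPKM passed 2-fold with a pseudocount of 0.1, and none of at least 10 FPKM did. Without the filter on low FPKM, MAFA made 4 factors lower. Leaving INSM1 out of the summed FPKM turned the change in the share of ISL1 from 0.33 to -0.71 percentage points. It also moved the changes of NEUROG3 from -2.95 to -5.41, NKX2-2 from -1.72 to -3.47, NEUROD1 from 3.39 to 2.06 and PAX6 from 2.84 to 1.60 points. No replicate could be left out, and no paired analysis was possible because each condition has 1 library. Depth bears on genes below 1 FPKM, but its part in the listed 0 of MAFA was not tested. On the reading of the bounds as 2 SDs, MAFA rested on 25.8 fragments in live cells. The bounds hold no spread between preparations, so that spread cannot be judged for any of the factors.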
